A study of Homo sapiens with 6 samples.

Results

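The IGF system was followed as 10 genes chosen by name, of 58302 Ensembl genes with read counts. They are the 7 insulin-like growth factor (IGF) binding proteins IGFBP1 to IGFBP7 and 3 receptors, IGF1R, IGF2R and INSR. All 10 were found, and 8 passed the low-count filter and were tested. RNA-seq was performed on human cells labelled MDA-MB-231, a breast cancer line known as mesenchymal and basal-like. Of the 6 libraries, 3 came from cells expressing a control shRNA and 3 from cells expressing Smyca shRNA #1, which targets the long noncoding RNA Smyca (annotated as MIR23AHG). Both groups thus carry an shRNA in the same line, no other allele or treatment is named, and neither the labels nor the methods say whether the cells were pools or clones. The comparison asks how far the transcriptome depends on Smyca, and it rests on 1 of the study's shRNAs.

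IGF-1 and IGF-2 signal through IGF1R, a receptor tyrosine kinase related to the insulin receptor INSR, and both receptors feed the PI3K/AKT/mTOR and MAP kinase relays. Most extracellular IGF is held by the IGF-binding proteins, which limit or deliver it, and several of them also act without IGF. IGF2R is built differently. It has no kinase, removes IGF-2 from the cell surface, and carries mannose 6-phosphate-tagged enzymes to the lysosome. In breast cancer, IGF1R is best known as a survival and growth receptor, and IGFBP3 as a binding protein that TGF-β can induce.

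Total counts lay between 14999307 and 16501085 per library. Smyca was at 19.5 to 25.0 normalized CPM in control cells and at 5.61 to 10.5 in Smyca knockdown cells, where CPM are read counts scaled by the TMM library size. Markers went partly against the label of the line. Of 9 mesenchymal markers tested, 5 were higher in the control at an unadjusted p under 0.05, against 10.4% of all genes tested, and 0 were lower, against 8.74%, and the list of 10 summed to 681 to 1526 normalized CPM in the control and 726 to 1104 in the knockdown. By the FPKM values the sum of control repeat 2 was 653. VIM was at 71.2 to 304.96 and MSN at 341 to 767 normalized CPM in the 6 libraries, CAV1, CAV2, AXL and CD44 were also expressed, and SPARC was at no more than 0.677. The keratin KRT8 was at 4249 to 7408. Of the gut and liver genes, VIL1 was at 220.5 to 500.6 and HNF4A at 65.4 to 194, while 6 of 12 intestinal and 12 of 16 hepatic markers had at most 20 counts, with CDX1, APOB, TTR, AFP and FGB at 0. The luminal list (10 genes) summed to 6656 to 7967 in the control and 7260 to 9997 in the knockdown, with ESR1 at most 3 counts and PGR at 0, and the intestinal list (12 genes) to 335 to 520.3 and 488 to 658. In each of these lists 1 gene was higher and 1 lower at that p, of 7 and 6 tested, beside the same shares of all genes. The cells are therefore named by their label only. In control repeat 2 the deposited FPKM column did not follow the count column, and values come from the count columns unless they are said to come from the FPKM values. All 15 hypoxia-inducible genes of a list had a positive log2 fold change (10 with an unadjusted p under 0.05), against 10.4% of all genes tested in that direction. Summed, they reached 8279, 5122 and 2887 normalized CPM in control repeats 1 to 3 and 3396, 3584 and 3428 in knockdown repeats 1 to 3. By the FPKM values of control repeat 2 their sum there was 2890, below each knockdown repeat.

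The study's criteria for a differentially expressed gene are a control/Smyca knockdown ratio from 1.5 upward or from 0.66 downward, with the adjusted p below 0.05. The study applied them with DESeq, and the shares given here come from other tests, so that they are not the study's own. By these, 0 of the 8 members tested passed in edgeR's quasi-likelihood test, where 0.0265% of all 15075 genes tested did. Smyca itself, the target of the shRNA, did not pass in that test (log2 fold change 1.53, adjusted p = 0.111). It passed with DESeq2's Wald test (adjusted p = 4.71e-05). Failing edgeR's test is therefore not read as absence of a change. DESeq2's Wald test called 1 of the 9 members it tested, IGFBP1, and 2.86% of all genes it tested. With no filter beyond 1 count, edgeR called 2 members, IGFBP1 and IGFBP3, and 3.01% of all genes tested. An unadjusted p under 0.05 was reached by 3 of the 8, IGFBP1, IGFBP3 and IGF1R, against 19.2% of all genes tested. The groups did not overlap in 2 of the 8, IGFBP1 and IGF1R, against 24.8% of all genes. Fold changes are given throughout as control over Smyca knockdown, and their median on the log2 scale was 0.19 over the 8 and 0.036 over all genes tested. The count of separate groups was near the background, so that it is no result about the members, and single genes are described by their values.

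**Figure D1:**
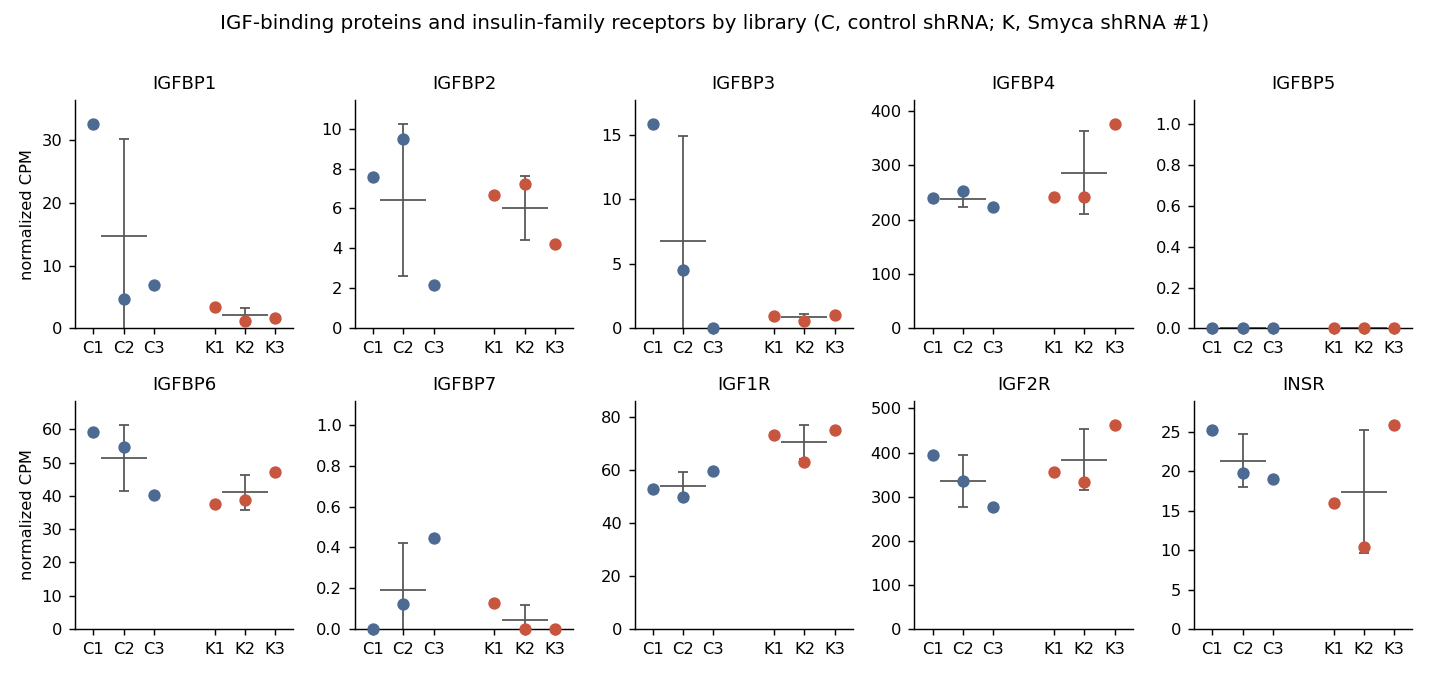
Normalized CPM (vertical axes, starting at 0) of the 10 members in control repeats C1 to C3 (blue) and Smyca knockdown repeats K1 to K3 (red), with the mean and SD of each group in grey (whiskers are cut at 0). IGFBP1 was highest in control repeat 1 (32.5), IGF1R lay between 49.9 and 59.7 in the control and between 63.2 and 75.3 in the knockdown, and IGFBP5 was at 0 throughout.

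IGFBP1, a small secreted binding protein that liver cells make in large amounts and that insulin represses, lay above the knockdown in each control repeat. Its normalized CPM were 32.5, 4.68 and 6.85 in control repeats 1 to 3, against 3.37, 1.14 and 1.72 in knockdown repeats 1 to 3. Control repeat 1 stood far above the other two, which were closer to the knockdown than to it. The means were 14.7 ± 15.5 and 2.07 ± 1.15 (SD, n = 3 each). The log2 fold change was 2.82 (standard error 0.76, 95% interval 1.08 to 4.55), or 7.04-fold, with an unadjusted p of 0.00536 and an adjusted p of 0.129. Without control repeat 1 it was 1.47 (adjusted p = 0.380), and without control repeat 3 it was 3.14 and passed the criteria (adjusted p = 0.0313), where 10.5% of all genes tested did. Reads recovered from the FPKM values of control repeat 2 put this library at 7.41 in place of 4.68. The 16 hepatic markers summed to 132 to 271 normalized CPM in the control (142 in control repeat 2 by its FPKM values) and 274 to 345 in the knockdown, with 0 of 4 tested higher and 1 lower in the control at an unadjusted p under 0.05 (10.4% and 8.74% of all genes tested), and ALB had at most 0.256. Their part in the IGFBP1 values was not tested. In bulk RNA, more cells expressing the gene and more RNA in each cell cannot be told apart.

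IGFBP3, the main carrier of IGFs in blood and a growth inhibitor in many cell types, has its gene next to IGFBP1. The genes lie on chromosome 7 of GRCh38, IGFBP1 at chr7:45888360-45893660 on the plus strand and IGFBP3 at chr7:45912245-45921874 on the minus strand, with 18584 bases and no other annotated gene between their ends. IGFBP3 was at 15.8, 4.55 and 0.064 normalized CPM in the control and at 0.952, 0.570 and 1.06 in the knockdown. By the count columns, control repeats 1 and 2 were above all knockdown repeats, and control repeat 3, with 1 read against 256 in control repeat 1, was below all of them. The control repeats therefore spanned the knockdown range, with means of 6.80 ± 8.10 and 0.860 ± 0.256 (SD, n = 3 each).

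The log2 fold change of IGFBP3 was 2.98 (standard error 1.17, 95% interval 0.31 to 5.64; unadjusted p = 0.0326, adjusted p = 0.219). It was 1.43 without control repeat 1 (unadjusted p = 0.211) and 3.55 without control repeat 3, where the gene passed the criteria (adjusted p = 0.00864). For control repeat 2 the count column held 74 reads of IGFBP3 and the FPKM column corresponded to 6, and with the latter this library was at 0.347 normalized CPM, below all knockdown repeats, so that control repeat 1 alone was above them. The log2 fold change was then 2.62 (unadjusted p = 0.116). By the count columns, the summed hypoxia-inducible genes had the same order of control repeats as IGFBP3. By the FPKM values of control repeat 2, that sum was nearly equal in control repeats 2 and 3 (2890 and 2885), and only control repeat 1 stood apart. Control repeat 1 was also the highest for IGFBP1. The part of the hypoxia-inducible genes in these results was not tested.

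IGFBP4 and IGFBP6 made up most of the binding protein transcripts. IGFBP4, which blocks IGF action until the protease PAPPA cleaves it, was at 240.1, 252.7 and 222 normalized CPM in the control and at 242, 242 and 375 in the knockdown. Knockdown repeat 3 was high and the other 5 libraries lay close together (log2 fold change -0.26, standard error 0.20, 95% interval -0.71 to 0.18, adjusted p = 0.491). IGFBP6, which prefers IGF-2, was at 59.4, 54.6 and 40.3 in the control and at 37.5, 38.8 and 47.1 in the knockdown, so that control repeat 3 lay within the knockdown range (log2 fold change 0.32, 95% interval -0.10 to 0.74, adjusted p = 0.375). By its FPKM values control repeat 2 was at 39.7, also within that range, and the log2 fold change was 0.16. IGFBP2, a binding protein of fetal and tumor tissue, was at 7.59, 9.48 and 2.18 against 6.67, 7.22 and 4.23. Its difference had a wide interval (log2 fold change 0.088, 95% interval -1.03 to 1.20) and its sign depended on the setting.

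IGFBP5, a binding protein held in the extracellular matrix, had 0 counts in each library, which allows up to 0.185 to 0.198 normalized CPM per library (3 counts, counting error only). It lies 7668 bases from IGFBP2 on chromosome 2, end to end like the pair on chromosome 7. IGFBP7, a more distant relative with weak IGF binding, had at most 7 counts, in control repeat 3. POLR2B, which overlaps it on the other strand, had 2052 to 2191 counts. Both binding proteins were left untested.

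**Figure D2:**
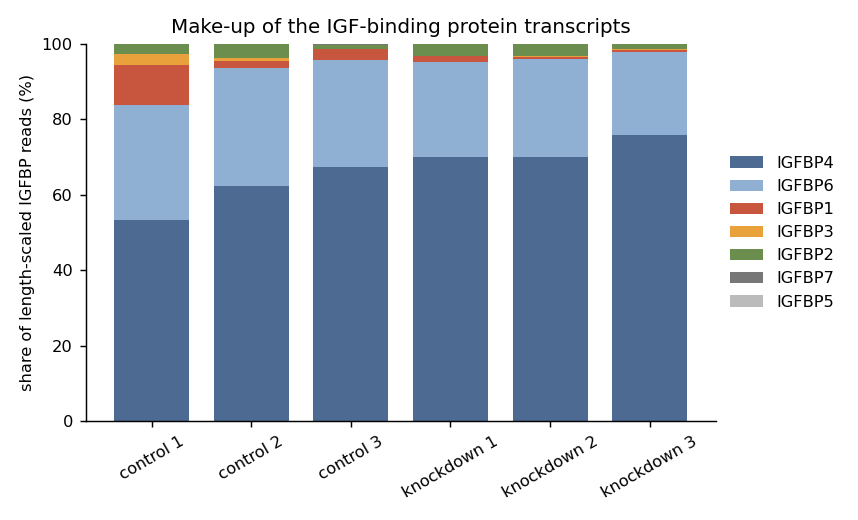
Share of each binding protein in the length-scaled IGFBP reads (vertical axis, percent) of the 3 control and 3 Smyca knockdown libraries. IGFBP4 held 53.3% to 75.8% and IGFBP6 22.2% to 31.4%, and IGFBP1 reached 10.5% in control repeat 1.

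Between genes, levels were compared as normalized CPM per kilobase of the main annotated transcript (MANE Select). Over the 6 libraries IGFBP4 was highest (mean 119, range 101 to 170), followed by IGFBP6 (48.9, range 39.6 to 62.7) and IGF2R (25.6, range 19.6 to 32.9), and these ranges did not overlap. IGFBP1 (5.53, range 0.753 to 21.4), IGF1R (5.10, range 4.08 to 6.15) and IGFBP2 (4.40, range 1.54 to 6.70) did not differ beyond their spread over both groups. In the knockdown alone, IGFBP1 (0.753 to 2.22) was below IGF1R (5.16 to 6.15) and IGFBP2 (2.99 to 5.11), and in the control their ranges overlapped. INSR was at 2.05 (range 1.10 to 2.74) and IGFBP3 at 1.47 (range 0.025 to 6.05), within one another's spread over both groups and overlapping that of IGFBP2. In the knockdown alone, IGFBP3 (0.218 to 0.404) was below INSR (1.10 to 2.74), and in the control their ranges overlapped. The order depended on the length used. The FPKM values rest on shorter lengths for the receptors, 1976 bases against 12235 for IGF1R, 3266 against 14061 for IGF2R and 2687 against 9463 for INSR, and also for IGFBP3, 1176 against 2613. With those lengths IGF2R (mean 110.1) was above IGFBP6 (50.6) and near IGFBP4 (119), while IGF1R was at 31.6, INSR at 7.22 and IGFBP3 at 3.26.

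As shares of the length-scaled IGFBP reads, IGFBP4 was at 53.3%, 62.3% and 67.3% in control repeats 1 to 3, against 70.1%, 69.9% and 75.8% in knockdown repeats 1 to 3. IGFBP6 was at 30.7%, 31.4% and 28.4% against 25.2%, 26.2% and 22.2%. IGFBP1 was at 10.5%, 1.68% and 3.02% against 1.42%, 0.481% and 0.506%. In these shares the groups did not overlap for IGFBP1, IGFBP4 and IGFBP6, although the levels of IGFBP4 and IGFBP6 overlapped. The shares also stayed apart with the FPKM values of control repeat 2 (3.17%, 67.7% and 27.1%). Shares within a library are tied to each other. They were not tested, and they have no background over all genes.

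IGF1R, the receptor for IGF-1, was lower in each control repeat than in each knockdown repeat. It was at 52.8, 49.9 and 59.7 normalized CPM in the control and at 73.4, 63.2 and 75.3 in the Smyca knockdown. The means were 54.2 ± 5.06 and 70.6 ± 6.52 (SD, n = 3 each), so that the groups were close but separate. The log2 fold change was -0.38 (standard error 0.15, 95% interval -0.72 to -0.050; unadjusted p = 0.0287, adjusted p = 0.208), or 1.30-fold higher in the knockdown, below the 1.5-fold criterion. Its sign was the same under all 13 alternatives, and the unadjusted p was under 0.05 in 8 of them. The gene spans chr15:98648539-98964530 of GRCh38, and the overlapping genes that have a count had at most 8 in any library.

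IGF2R, the mannose 6-phosphate receptor, was at 393, 336 and 276 normalized CPM in the control and at 357, 333 and 462 in the knockdown. The groups overlapped, with the highest value in knockdown repeat 3 (log2 fold change -0.20, standard error 0.19, 95% interval -0.63 to 0.24, adjusted p = 0.594). INSR, the insulin receptor, was at 25.2, 19.8 and 19.0 against 16.0, 10.4 and 25.9. Knockdown repeat 3 was again the highest library and knockdown repeat 2 the lowest (log2 fold change 0.29, standard error 0.31, 95% interval -0.42 to 1.01, adjusted p = 0.633). The log2 fold change of INSR was 0.68 without knockdown repeat 3 (unadjusted p = 0.0291) and 0.024 without knockdown repeat 2. Per kilobase, IGF1R was 1.62, 1.95 and 2.43 times INSR in the control and 3.55, 4.70 and 2.25 times INSR in the knockdown, and these ratios overlapped between the groups. With the lengths behind the FPKM values the ratios were 2.85, 3.42 and 4.27 against 6.24, 8.27 and 3.95, also with overlap.

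**Figure D3:**
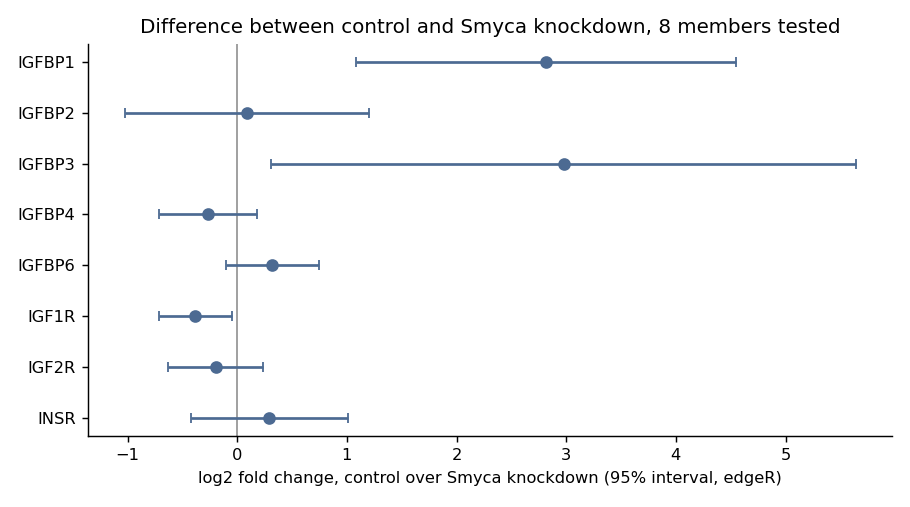
Log2 fold change, control over Smyca knockdown (horizontal axis), of the 8 members tested, with 95% intervals from edgeR. The intervals of IGFBP1 (1.08 to 4.55), IGFBP3 (0.31 to 5.64) and IGF1R (-0.72 to -0.050) lie to one side of 0, and the other 5 include 0.

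**Figure D4:**
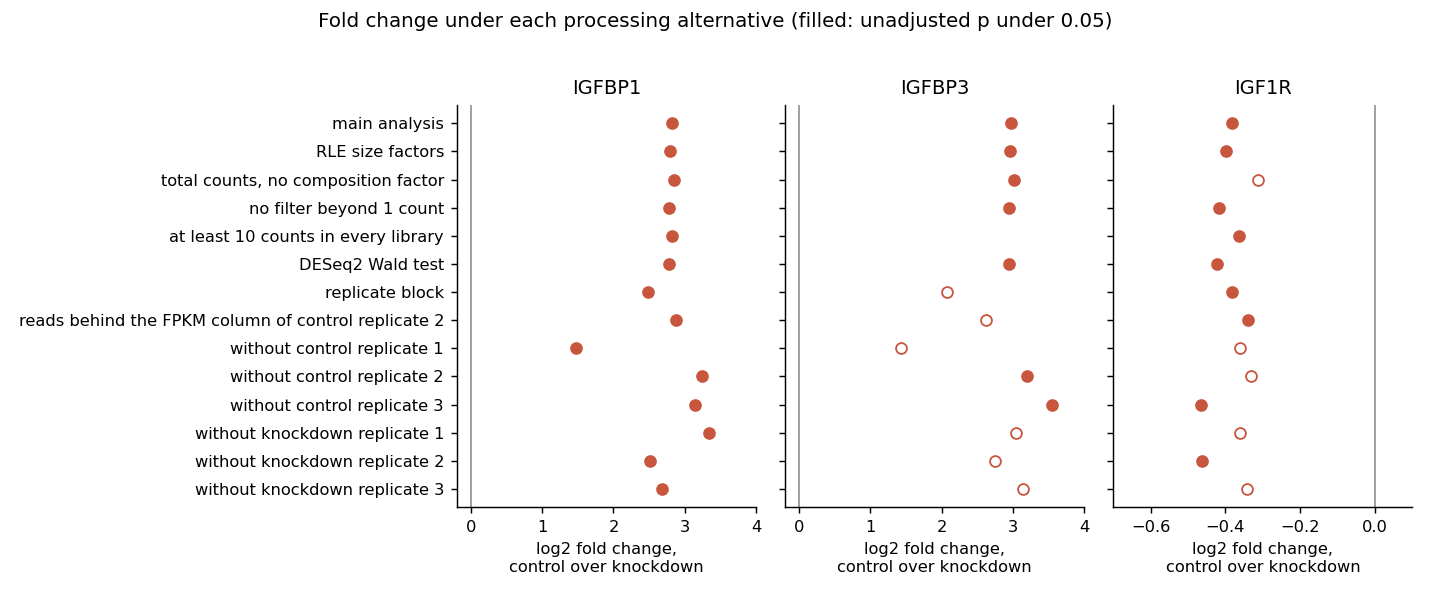
Log2 fold change, control over Smyca knockdown (horizontal axes), of IGFBP1, IGFBP3 and IGF1R in the main analysis and under each alternative (rows), filled where the unadjusted p was under 0.05. IGFBP1 was at 1.47 and IGFBP3 at 1.43 without control repeat 1, and IGF1R stayed between -0.46 and -0.31.

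Promoter windows were taken from RefSeq (GRCh38.p14), from 250 bases before to 50 bases after each start, and 10 windows of 8 members were available. IGFBP1, the member with the smallest p, and IGFBP7 had no window and were not searched. Windows of IGFBP3 and IGF1R are printed because these genes had the low p-values described above, and that of IGF2R because it holds E-boxes, the letters that c-Myc/Max binds. All are written 5′ to 3′ on the strand of the gene. Capitals mark the GC box GGGCGG or its reverse complement in IGFBP3 (chr7:45921223-45921522, minus strand) and IGF1R (chr15:98648289-98648588, plus strand), and the E-box CACGTG in IGF2R (chr6:159968832-159969131, plus strand).
IGFBP3: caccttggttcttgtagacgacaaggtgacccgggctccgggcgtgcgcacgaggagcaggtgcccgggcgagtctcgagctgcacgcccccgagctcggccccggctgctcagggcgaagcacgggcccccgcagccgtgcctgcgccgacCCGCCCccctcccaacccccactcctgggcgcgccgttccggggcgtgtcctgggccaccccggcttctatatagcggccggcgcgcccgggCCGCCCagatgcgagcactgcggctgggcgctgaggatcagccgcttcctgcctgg
IGF1R: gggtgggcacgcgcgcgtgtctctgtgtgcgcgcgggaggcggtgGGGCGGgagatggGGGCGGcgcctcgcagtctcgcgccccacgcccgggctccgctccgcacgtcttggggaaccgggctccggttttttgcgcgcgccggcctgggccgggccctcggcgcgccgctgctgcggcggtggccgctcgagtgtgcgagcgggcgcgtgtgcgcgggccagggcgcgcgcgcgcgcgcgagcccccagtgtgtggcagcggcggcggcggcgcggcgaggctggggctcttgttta
IGF2R: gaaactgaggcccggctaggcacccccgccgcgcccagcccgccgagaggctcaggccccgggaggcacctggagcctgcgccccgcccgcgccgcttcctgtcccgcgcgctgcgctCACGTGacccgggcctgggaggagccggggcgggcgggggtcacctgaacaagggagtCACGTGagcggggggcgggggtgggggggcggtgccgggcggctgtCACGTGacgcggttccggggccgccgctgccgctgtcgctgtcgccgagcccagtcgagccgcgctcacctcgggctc

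The windows were GC-rich, at 74.7% for IGFBP3, 79.7% for IGF1R and 78.7% for IGF2R. On both strands, the GC box was found in 8 of the 10 windows (7 members) and in 45.0% of all 35116 windows. The E-box was found in 1 of the 10, that of IGF2R with 3 matches, and in 7.26% of all windows. The SMAD box CAGAC was found in 3 of the 10, of IGFBP2 and INSR, and in 45.3% of all windows. The hypoxia core ACGTG, which overlaps the E-box, was found in 3 of the 10 (IGFBP2, IGF1R and IGF2R) and in 21.4% of all windows. These matches describe letters only.

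The rest of the pathway was followed with lists of genes, in which 0 genes passed the criteria in edgeR's quasi-likelihood test. Under other settings, the PI3K, AKT, FOXO and mTOR relay was followed as a count. Gene by gene, they were followed for at most 3 genes of each list, those with the smallest p. Of these, GRB10 and PIK3R1 passed with DESeq2's Wald test (adjusted p = 0.0281 and 0.00642) and in edgeR with no filter beyond 1 count (adjusted p = 0.00409 and 0.0138). IRS2, PIK3R1 and NAGPA passed in edgeR without control repeat 3 (adjusted p = 0.0350, 0.0328 and 0.0174). The shares of all genes that passed under these settings are those given for the members. Of the ligands, IGF2 was at 1.97 to 2.18 normalized CPM in the control and 1.77 to 3.75 in the knockdown (log2 fold change -0.56, adjusted p = 0.432), and its reads are uncertain since GENCODE places the read-through gene INS-IGF2 over it on the same strand. IGF1 and INS had at most 1 and 3 counts. IGFALS, the blood partner of IGFBP3, differed by -0.31 (adjusted p = 0.760, and -0.59 with the FPKM values of control repeat 2). Of 7 proteases and inhibitors, 2 were tested. HTRA1, a serine protease of binding proteins, differed by 0.38 (adjusted p = 0.485, and 0.13 with those values), and STC2, an inhibitor of PAPPA, by 0.29 (adjusted p = 0.547), and PAPPA itself had at most 7 counts.

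Of 12 substrates and adaptors, 10 were tested, and 1 had an unadjusted p under 0.05, against 19.2% of all genes tested, so that the count is no result about the list. GRB10, an adaptor that restrains IGF1R and INSR, was at 82.9, 45.4 and 43.6 normalized CPM in the control and at 22.4, 7.16 and 33.6 in the knockdown. The groups did not overlap (log2 fold change 1.44, standard error 0.49, adjusted p = 0.173). IRS2, a docking protein of both receptors, was at 242, 194 and 89.9 against 143, 81.3 and 77.6, with overlap (log2 fold change 0.80, adjusted p = 0.281, and 0.49 with the FPKM values of control repeat 2). SOS2, an activator of RAS, differed by 0.46 (adjusted p = 0.282).

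In the PI3K, AKT, FOXO and mTOR relay, 22 of 23 genes were tested. An unadjusted p under 0.05 was reached by 7, all 7 lower in the control, against 8.74% of all genes tested in that direction, and by 0 in the other direction, against 10.4%. They were the PI3K regulatory subunits PIK3R1 and PIK3R3, the kinases PDPK1, AKT1, AKT2 and MTOR, and RPTOR, the partner of MTOR in its first complex. PIK3R1 was at 24.6, 30.8 and 29.4 normalized CPM in the control and at 57.5, 46.1 and 42.7 in the knockdown (log2 fold change -0.79, standard error 0.17, adjusted p = 0.111). MTOR was at 102, 112 and 117 against 143, 151 and 177 (log2 fold change -0.51, adjusted p = 0.140), and AKT2 at 215, 200.1 and 206 against 247, 284 and 296 (log2 fold change -0.41, adjusted p = 0.170). Over the whole list, 8 of 22 genes were lower in each control repeat than in each knockdown repeat, against 12.5% of all genes tested, and 0 were higher, against 12.4%. The median of the 22 was -0.034, near the 0.036 of all genes. The count of 7 was 4 without control repeat 1, control repeat 2 or knockdown repeat 2, where 5.02%, 5.76% and 4.75% of all genes tested were lower at that p, and 3 without knockdown repeat 3, where 8.39% were.

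**Figure D5:**
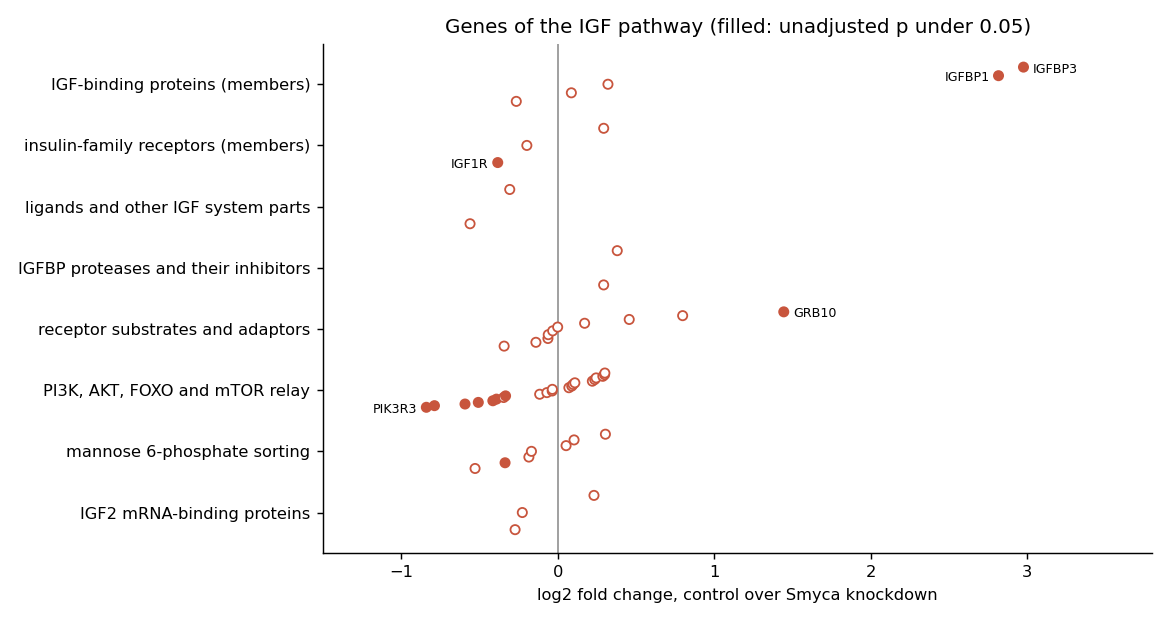
Log2 fold change, control over Smyca knockdown (horizontal axis), of each tested gene of the members and the pathway lists (rows), filled where the unadjusted p was under 0.05. The 7 filled relay genes lie left of 0, and GRB10 is at 1.44.

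IGF2R works with a lysosomal sorting pathway, and all 7 of its genes on the list were tested. GNPTAB, which starts the mannose 6-phosphate tag, had the one unadjusted p under 0.05, where 19.2% of all genes tested did, with 29.8, 27.4 and 33.7 normalized CPM in the control and 37.4, 38.0 and 39.3 in the knockdown (log2 fold change -0.34, adjusted p = 0.257). GGA3, a sorting adaptor, differed by 0.31 (adjusted p = 0.284) and NAGPA, which uncovers the tag, by -0.53 (adjusted p = 0.448, and -0.12 with the FPKM values of control repeat 2). With those values the unadjusted p of GNPTAB was 0.0825. The IGF2 mRNA-binding proteins IGF2BP1, IGF2BP3 and IGF2BP2, which are no relatives of the IGFBPs, differed by -0.27, -0.23 and 0.23 (adjusted p = 0.351, 0.409 and 0.511). With the FPKM values of control repeat 2, IGF2BP1 was at -0.38 (unadjusted p = 0.0209, against 0.101), IGF2BP3 at -0.20 and IGF2BP2 at 0.14.

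The genes with the profile most like that of IGFBP1 over the 6 libraries, by Pearson's r of log2(CPM + 1) among 10944 genes, were SMURF2 (r = 0.983), SOX8 (0.981) and HPS4 (0.978). SMURF2 was at 72.4, 49.7 and 50.3 normalized CPM in the control and at 45.6, 40.9 and 45.0 in the knockdown, with the same single high library. For IGF1R they were TAF8 (0.995), YY1 (0.992) and MTFR1 (0.985), and YY1 was at 156, 146 and 170 in the control and at 195, 178 and 209 in the knockdown. These values share the libraries and their scaling, and the best of so many genes is high by selection.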

How the data were processed

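RNA-seq counts were analysed for 3 control and 3 Smyca knockdown repeats, grouped by the sample titles. Per the labels and the study's methods, stranded libraries were made after rRNA depletion and read from both ends. TopHat2 2.0.12 served the authors for mapping to GRCh38, and HTSeq for counting. The annotation release and the strand setting of the counting are not given in the sources used here. The authors deposited raw read counts per gene and FPKM values. The FPKM values served to recover gene lengths and, for control repeat 2, the reads behind that column (100% of values under 60 reads were whole within 0.03 reads).

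Symbols came from GENCODE release 44 (57532 of 58302 identifiers matched). The tests used edgeR 4.0.16 under R 4.3.3 (filterByExpr, TMM, quasi-likelihood test, no block), with Benjamini-Hochberg adjustment over all 15075 genes tested. The residual biological coefficient of variation was 25.2%. The code was tested on simulated data. The repeats of a group differed beyond sampling noise, and p-values measure the spread between them. The paper's DESeq was not used here. DESeq2 1.42.0 and the other alternatives are given at the end.

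The text names all 10 members, Smyca, of each pathway list the genes that passed the criteria and the 3 with the smallest p, and 3 nearest profiles for the binding protein and the receptor with the smallest p. Outside this rule, PIK3R3, PDPK1, AKT1 and RPTOR (for their unadjusted p), IGF1, INS and PAPPA (for their low counts) and the marker genes were picked after their values were seen. The members, lists and tests were chosen with earlier results of these data known.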

Additional observations from a re-analysis of the deposited data

Results flagged for a closer look

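In control repeat 2, 3357 genes had 0 counts and an FPKM above 0, a signal outside the count columns that occurred for 0 genes in each of the other 5 libraries. Over 15075 genes, the reads behind this FPKM column correlated with the counts of control repeat 3 at r = 0.993 and with the counts of control repeat 2 at r = 0.954 (log2 scale, genes are not independent). Among the members, the count column and the recovered reads were 74 and 6 for IGFBP3, 76 and 128 for IGFBP1, 154 and 70 for IGFBP2, and 811 and 969 for IGF1R. Which column belongs to the library was not tested.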

How the results depend on the processing

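The number of members past the criteria was 0 in the main analysis, 2 with no filter beyond 1 count (IGFBP1 and IGFBP3), 1 with DESeq2's Wald test (IGFBP1), and 0 to 2 with each repeat left out, the 2 being without control repeat 3. The number with an unadjusted p under 0.05 was 3, and 1 to 4 with each repeat left out, the 1 being without control repeat 1 or knockdown repeat 1 (11.2% and 15.8% of all genes tested) and the 4 without control repeat 3 (29.6%). The relay genes lower in the control numbered 7, and 3 to 7 with each repeat left out, against 4.75% to 13.9% of all genes tested. Adjusted p-values over the alternatives ranged from 0.000342 to 0.440 for IGFBP1, from 0.00864 to 0.633 for IGFBP3 and from 0.0792 to 0.485 for IGF1R. IGFBP2, at 0.088, turned to -0.41 with reads recovered from the FPKM values of control repeat 2 and ranged from -0.31 to 0.49 with each repeat left out. The cause was not tested. Without knockdown repeat 3, IGFBP4 was at -0.031 and IGF2R at -0.052. The other 7 members tested kept their sign in each alternative run, and IGFBP3 could not be fitted with at least 10 counts in every library. Over all genes, 2893 had an unadjusted p under 0.05, 1318 of them lower in the control, and with total counts alone 2848 did, 883 of them lower. That count of DEGs was 4, 916 without a filter, 870 with DESeq2 and 0 to 1628 with each repeat left out.

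Repeats with the same number were not tied by the labels. Their deviations from the group means correlated at 0.061, 0.084 and -0.014, and control repeat 1 correlated better with knockdown repeat 3 (0.074). With the repeat number as a block, 0 members and 0 of all genes passed the criteria, 2 members had an unadjusted p under 0.05, against 17.0% of all genes, IGFBP1 was at 2.48, IGFBP3 at 2.07 (unadjusted p = 0.173), IGF1R at -0.38 and IGFBP2 at -0.088, and 5 relay genes were lower in the control, against 7.81% of all genes.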
